A study of Drosophila melanogaster with 12 samples.

Results

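Among the transcripts recovered with Bam-GFP from fly ovaries, 78 were higher in every Bam-GFP immunoprecipitation than in every immunoprecipitation of GFP alone by a fixed margin. They were chosen from the RNA-immunoprecipitation and sequencing (RIP-seq) counts by a rule with 3 conditions. The lowest of the 3 Bam-GFP libraries had to reach at least 1.5 times the highest of the 3 GFP libraries, in CPM (the counts of a gene per 1000000 counts on genes). The mean with Bam-GFP had to reach 10 CPM. Eggshell genes (*Vm* and *Cp* genes with a number, *Vml*, *dec-1*, *psd* and *Fcp3C*) were left out. The rule kept 78 of 17737 genes in the table, which is 0.711% of the 10971 genes with at least 1 count and 1.39% of the 5611 genes with a mean of at least 10 CPM with Bam-GFP. Since the rule used this contrast, the levels and ratios of the 78 transcripts are given as a description, with no test.

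Bag of marbles (Bam) is the factor that turns the daughter of a germline stem cell of the *Drosophila* ovary into a cystoblast, the founder of a germline cyst. Stem cells repress *bam* in response to signals of their niche, and Bam protein is made in cystoblasts and dividing cysts. It has no known RNA-binding domain and acts on mRNAs with partners such as Bgcn, Mei-P26 and the CCR4-NOT deadenylase complex. Around the growing germline cyst lies an epithelium of somatic follicle cells, which secretes the eggshell and parts of the system that patterns the embryo.

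The Bam-GFP libraries came from ovaries of the strain Bam-fTRG-GFP, which carries GFP-tagged Bam from a genomic fosmid transgene. The control libraries came from Bam-Gal4 ::UASp-GFP ovaries, in which a *bam* driver switches on GFP alone. For each library, RNA was isolated from GFP-Trap beads after immunoprecipitation from pooled ovaries. Input RNA was not analysed here, and a difference on the beads and a difference in the ovary cannot be told apart. In addition, sorted GFP-positive germ cells of *vas*-GFP; bam_delta86/bam_delta86 and *vas*-GFP ovaries were sequenced, and the part of that table used below is the mean over all libraries. In these bulk samples, fewer cells of a type and less RNA per cell cannot be told apart, and p-values measure only the spread between 3 libraries a group, which may be technical.

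Counts on genes ranged from 7720890 to 12704088 in the Bam-GFP libraries and from 7697440 to 9342593 in the GFP libraries, so that 3 counts equalled 0.236 to 0.390 CPM. Alignments to several places were not counted on genes. They made up 79.3% to 89.5% of all deposited counts with Bam-GFP and 86.5% to 89.6% with GFP alone. The paper reports higher rates of uniquely mapped reads than these shares leave room for, so that they are not read as shares of reads. With edgeR's quasi-likelihood test over all genes and Benjamini-Hochberg adjustment, 189 genes (1.72%) were higher and 52 genes (0.474%) were lower with Bam-GFP. Over the alternatives, these counts ran from 55 without replicate 2 to 304 with DESeq2 for higher and from 13 with at least 10 counts in every library to 104 with DESeq2 for lower. Fitted log2 fold changes given below come from the same edgeR fit, in which the median over all genes tested was −0.05.

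The 78 transcripts spanned a wide range of counts. CPM is not divided by transcript length, so that it is read here between libraries and not between genes. Their mean with Bam-GFP had a median of 58.3 CPM, against 15.8 CPM with GFP alone. The mean reached 1000 CPM for 2 of them and 100 CPM for 27, whereas 13 lay under 20 CPM. Summed over the 78, they made up 17450, 14030 and 23019 CPM in the Bam-GFP libraries and 6081, 4994 and 5260 CPM in the GFP libraries. The ratio of means had a median of 4.05 over the 77 transcripts with a count in a GFP library, from 1.95 for *ct* to 46.3 for *sano*. The lowest Bam-GFP library exceeded the highest GFP library at least 2-fold for 42 transcripts, at least 3-fold for 16 and at least 4-fold for 9. All 6 libraries held at least 10 counts for 65 of the 78.

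**Figure D1:**
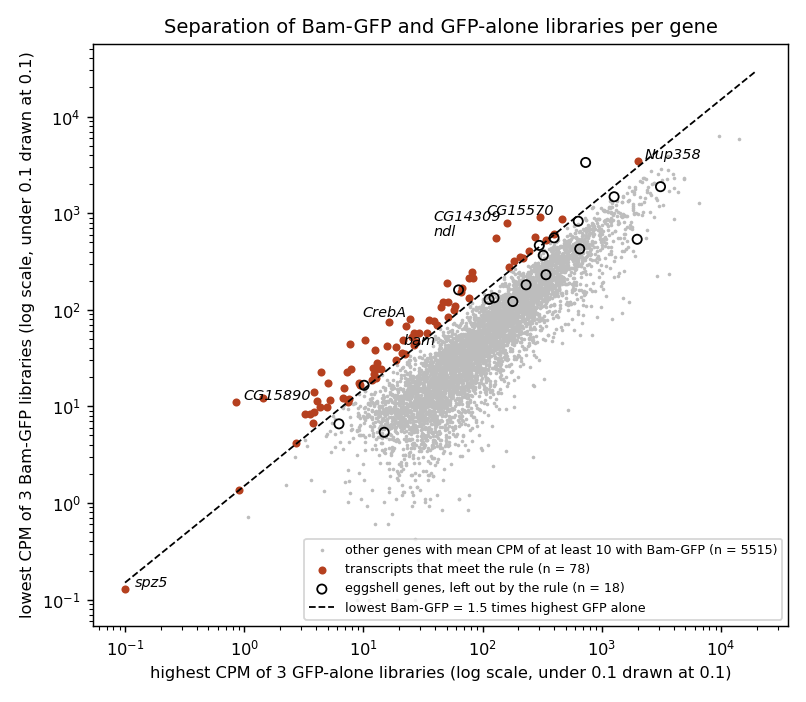
Lowest CPM of the 3 Bam-GFP libraries (y axis, log scale) against the highest CPM of the 3 GFP libraries (x axis, log scale) for each gene, with the 78 transcripts in red, other genes with at least 10 CPM in grey and 18 eggshell genes as open circles. By construction the red points lie on or above the dashed line of 1.5, apart from *spz5*. It had no count with GFP alone and 0.130 CPM in its lowest Bam-GFP library, and the lowest values are drawn at the lower bound of each axis. *Nup358* lies at the upper end with 3433 CPM in its lowest Bam-GFP library.

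At the edge of the rule, the separation was graded. With CPM scaled by TMM factors in place of library totals, 118 genes met it, including all 78. Just inside lay *CG1632* and *CG46339* with a lowest-to-highest ratio of 1.51 each, *tweek* and *LRP1* with 1.52 each and *Drip* with 1.55. Just outside lay *Sur* and *CG32645* with 1.48 each, *CG31751* with 1.46, *CG7091* with 1.45 and *FER* with 1.44. By mean CPM with Bam-GFP, *CG1632* (10.1 CPM), *Drip* (10.2 CPM) and *bnb* (10.5 CPM) were the last inside, and *Fdx1* (9.97 CPM), *CG15080* (9.09 CPM) and *CG43902* (8.39 CPM) the first outside. The same rule with both groups exchanged kept 127 genes, which is 2.18% of the 5816 genes with a mean of at least 10 CPM with GFP alone. Groups that did not overlap, at any margin, were found in the direction of Bam-GFP for 491 of the genes with a count (4.48%) and for 354 of the 5611 with at least 10 CPM (6.31%).

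Transcript levels of *bam* itself, the bait, met the rule. The gene (FBgn0000158) lies on chromosome 3R from 25243039 to 25245109 in the Release 6 annotation. It reached 41.6, 52.5 and 43.8 CPM with Bam-GFP, against 18.8, 13 and 3.35 CPM with GFP alone. The Bam-GFP libraries lay close together, while the GFP libraries differed several-fold among themselves. The tagged fosmid adds a copy of *bam*, and the extent of the genomic piece is not given in the sources used here, so that more *bam* mRNA in the ovary and more *bam* mRNA on the beads cannot be told apart.

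The highest CPM of the 78 belonged to a neighbour of *bam*. *Nup358* (FBgn0039302), which encodes the large filament protein of the cytoplasmic face of the nuclear pore, starts 4239 bases from *bam*, at 3R from 25249348 to 25258672. Its level was 4061, 3433 and 6636 CPM in the Bam-GFP libraries and 1999, 1694 and 1596 CPM in the GFP libraries. Its lowest Bam-GFP library was 1.72 times its highest GFP library. Without *Nup358*, the other 77 transcripts still summed to 13389, 10596 and 16383 CPM with Bam-GFP, against 4082, 3300 and 3665 CPM with GFP alone.

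Within 40 kb of *bam*, 31 genes are annotated and 11 had a mean of at least 10 CPM in either group. Only *bam* and *Nup358* met the rule, and of the other 9, 7 had groups that overlapped. The groups of the remaining 2 did not overlap in the lower direction. The share of all genes with that pattern was not computed, so these 2 are given by their values only. *Saysd1* had 10.3, 12 and 4.33 CPM in the Bam-GFP libraries and 18.2, 17.5 and 16.8 CPM in the GFP libraries, and *CG11858* had 8.14, 6.61 and 4.64 CPM in the Bam-GFP libraries and 12.5, 9.09 and 18.9 CPM in the GFP libraries. *RpS27*, a ribosomal protein gene between them, showed 470, 2074 and 353 CPM with Bam-GFP and averaged 966 ± 961 CPM, against 746 ± 479 CPM with GFP alone (SD, n = 3 each). *Nup37*, another nuclear pore gene in the same gap, averaged 15.2 ± 9.77 CPM with Bam-GFP, against 19 ± 5.08 CPM with GFP alone. *CG11857*, on the far side of *Nup358*, averaged 171 ± 41.6 CPM with Bam-GFP, against 139 ± 12.5 CPM with GFP alone. These 3 genes, which lie between *bam* and *Nup358* or next to *Nup358*, overlapped between the groups, with a wide spread for *RpS27* and *Nup37*. Whether the fosmid holds *Nup358* is not given in the sources used here. More *Nup358* mRNA in the ovary and more on the beads cannot be told apart.

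**Figure D2:**
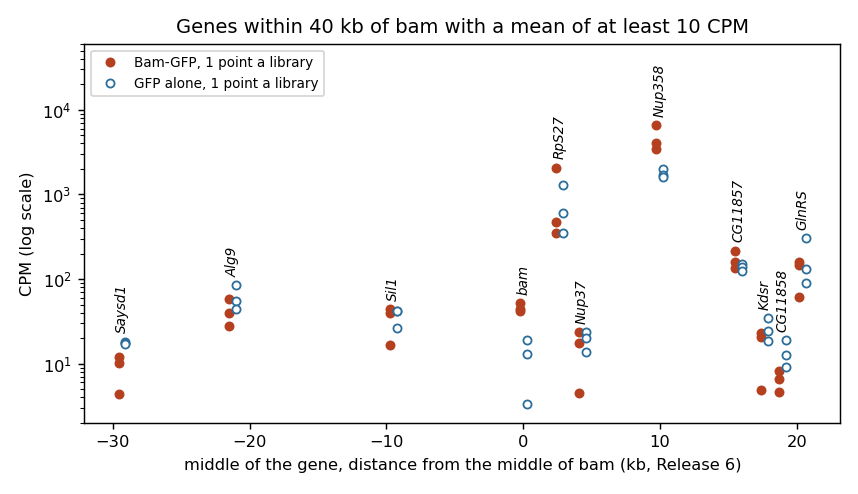
CPM (y axis, log scale) in each library for the 11 genes within 40 kb of *bam* with a mean of at least 10 CPM, placed by the distance of their middle from that of *bam* (x axis, kb), with Bam-GFP as filled and GFP alone as open points. The groups separate in the direction of Bam-GFP for *bam* and *Nup358*.

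Secreted and matrix proteins gave 9 of the 78 transcripts (roles were assigned after the values were seen). *ndl* (Nudel, FBgn0002926, 3L from 6593938 to 6603366), a serine protease that follicle cells secrete to start dorsal-ventral patterning of the embryo, was present at 693, 558 and 1157 CPM with Bam-GFP, against 129, 79.1 and 103 CPM with GFP alone. Its ratio of means was 7.75, and the fitted log2 fold change was 3.14. *Mur2B*, a mucin-related gene of 145235 bases on the X chromosome, had 974, 879 and 984 CPM with Bam-GFP, against 421, 296 and 466 CPM with GFP alone. *Idgf3*, a chitinase-like growth factor, had 18.6, 14.1 and 15.5 CPM with Bam-GFP, against 3.85, 1.82 and 2.91 CPM with GFP alone. The ADAMTS proteases *stl* and *sona* had ratios of 5.46 and 3.89, with 24.2, 31.6 and 38.7 CPM for *stl* and 129, 119 and 146 CPM for *sona* with Bam-GFP, against 7.92, 3.25 and 6.15 CPM and 29, 46.9 and 25.4 CPM with GFP alone. The zona pellucida domain gene *tyn*, the BMP-binding gene *cv* and the beta-galactosidase gene *Ect3* had ratios of 2.62, 3.11 and 3.09. The ninth, *spz5*, is described with the transcripts whose Bam-GFP libraries were most uneven.

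Adhesion and cell surface molecules formed a group of 10, with ratios of means from 2.24 to 14.9 and a median of 4.78. They summed to 1118, 898 and 1548 CPM with Bam-GFP and to 347, 287 and 326 CPM with GFP alone. Of these, 3 are cadherins. *Cad74A* had 244, 281 and 555 CPM with Bam-GFP, against 79, 67.2 and 82 CPM with GFP alone. *Cad99C*, the protocadherin of follicle cell microvilli, had 82.5, 75.9 and 128 CPM in the Bam-GFP libraries and 38.9, 30.1 and 31.8 CPM in the GFP libraries. *Cad88C* had 24.2, 28.4 and 62 CPM with Bam-GFP, against 14, 4.55 and 2.16 CPM with GFP alone. In all 3, Bam-GFP library 3 was the highest.

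The teneurin gene *Ten-a* (FBgn0267001), the longest of the 78 at 291517 bases (X from 12043698 to 12335214), had 97.2, 48.3 and 107 CPM with Bam-GFP, against 10.3, 0.390 and 6.26 CPM with GFP alone. GFP library 2 held only 3 counts. *Sema2b*, a secreted semaphorin, was steady with Bam-GFP at 38.6, 42 and 49.6 CPM and uneven with GFP alone at 1.28, 12.5 and 1.08 CPM. The Toll family receptors *18w* and *Tollo* had 168, 99.9 and 129 CPM and 133, 83.4 and 112 CPM with Bam-GFP, against 46.1, 44.6 and 57.9 CPM and 51.2, 45.9 and 49.5 CPM with GFP alone. Both lay near the lower end of the ratios, at 2.67 and 2.24. The matrix and adhesion genes *mfas* and *tnc* and the cell surface gene *rgn* had ratios of 4.84, 7.27 and 2.73.

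Endocytic and scavenger receptors gave 3, with ratios of means from 3.0 to 4.95. *mgl* (Megalin, X from 9358496 to 9500129) had 829.6, 569.9 and 1566 CPM with Bam-GFP, against 276, 121 and 202 CPM with GFP alone. *LRP1*, of the same low-density lipoprotein receptor family, had 932, 522 and 1104 CPM in the Bam-GFP libraries and 343, 232 and 262 CPM in the GFP libraries. *emp*, a scavenger receptor of the CD36 family, had 113, 102 and 78.2 CPM with Bam-GFP, against 28.5, 35.7 and 33.1 CPM with GFP alone. For *mgl* and *LRP1*, Bam-GFP library 3 was the highest and library 2 the lowest, whereas *emp* was lowest in library 3. The fitted log2 fold change was 2.48 for *mgl* and 1.79 for *LRP1*.

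Transcription factors and RNA regulators accounted for 7, with a median ratio of 3.15. *CrebA* (3L from 15535395 to 15553214), a bZIP factor that raises the capacity of the secretory pathway, had 109, 79.9 and 96.3 CPM with Bam-GFP, against 23.4, 20.9 and 24.5 CPM with GFP alone. Its libraries lay close together in both groups, and its fitted log2 fold change was 2.27. The homeodomain factor *ct* (Cut), which controls the mitotic cycles of follicle cells, had 48.8, 42.9 and 51 CPM in the Bam-GFP libraries and 23, 23.8 and 26.3 CPM in the GFP libraries, the smallest ratio of means of all. *Eip74EF*, an ecdysone-induced Ets factor, had 57.6, 66.6 and 71.3 CPM with Bam-GFP, against 26.7, 26.4 and 9.07 CPM with GFP alone. *Glut4EF* had 392, 346 and 386 CPM with Bam-GFP, against 162, 146 and 216 CPM with GFP alone. The RNA-binding protein gene *cpo*, the zinc finger gene *dati* and *Cipc* had ratios of 3.02, 8.0 and 3.87.

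Enzymes of lipid metabolism gave 5. The acyl-CoA desaturase gene *CG9747* (3R from 30185423 to 30191252) had 189.6, 249 and 248 CPM with Bam-GFP, against 36.7, 49.9 and 31.6 CPM with GFP alone, a ratio of 5.81. *CG8303* and *CG5065*, both fatty acyl-CoA reductase genes, lie 3281 bases apart on 2R. *CG8303* had 172, 169 and 180.4 CPM in the Bam-GFP libraries and 32.2, 39.9 and 66.6 CPM in the GFP libraries. *CG5065* had 53, 42.5 and 51.9 CPM with Bam-GFP, against 13.6, 15.8 and 9.07 CPM with GFP alone. Both were even across the Bam-GFP libraries, with ratios of 3.76 and 3.83. The elongase gene *Elovl7* and *Hsdl2* had ratios of 3.51 and 2.63.

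Signalling and cytoskeletal genes gave 7. *Pde9* (X from 12785563 to 12897327), a cyclic nucleotide phosphodiesterase gene, had 44.7, 58.2 and 82.3 CPM with Bam-GFP, against 6.85, 1.43 and 7.77 CPM with GFP alone. *RhoGEF64C*, a guanine nucleotide exchange factor gene, had 79.3, 74.1 and 112 CPM in the Bam-GFP libraries and 13.9, 6.11 and 16.3 CPM in the GFP libraries. *Rac2*, a small GTPase that acts on the actin cytoskeleton, had 262, 212 and 253 CPM with Bam-GFP, against 64.2, 53.7 and 83 CPM with GFP alone. Its paralog *Rac1* is nearly identical, so that reads of the pair can be split or lost and the level of *Rac2* is uncertain. The formin *Frl*, the synaptotagmin-like gene *btsz* and the regulator of G protein signalling *Dhit* had ratios of 2.50, 4.59 and 3.32.

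Among the other named genes, *tweek*, known in flies for synaptic vesicle recycling, had 801, 607 and 1090.0 CPM with Bam-GFP, against 399, 260.0 and 354 CPM with GFP alone. *HERC2*, a giant ubiquitin ligase gene, had 447, 351 and 969 CPM in the Bam-GFP libraries and 205, 111 and 128 CPM in the GFP libraries. Both were highest in Bam-GFP library 3. *wake*, *pwn*, *bnb*, *babos* and the aquaporin gene *Drip* had ratios of 4.40, 3.08, 3.87, 4.44 and 4.55.

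The largest group, 28 transcripts, has no role given here. It held some of the widest separations. *CG15570* (X from 4218170 to 4223331) had 1287, 905 and 1531 CPM with Bam-GFP, against 263, 305 and 266 CPM with GFP alone. *CG14309* (3R from 18381580 to 18385072) had 905, 784 and 1037 CPM with Bam-GFP, against 101, 159.9 and 59.9 CPM with GFP alone. Even its lowest Bam-GFP library was 4.90 times its highest GFP library, and the fitted log2 fold change was 3.42. *CG15890* had the widest separation of all transcripts with a count in a GFP library, at 13.0 times. It had 14.5, 20.6 and 11.1 CPM with Bam-GFP, against 0.856, 0.260 and 0.216 CPM with GFP alone, where the GFP libraries held 8, 2 and 2 counts. *CG10654* had 76, 22.9 and 49.4 CPM with Bam-GFP, against 2.46, 2.99 and 4.43 CPM with GFP alone. *CG12592* and *CG12398* had 18.6, 17.6 and 22.4 CPM and 22.9, 34.1 and 51.1 CPM with Bam-GFP, against 4.60, 4.81 and 5.07 CPM and 7.28, 6.37 and 3.78 CPM with GFP alone. *CG11122* had 458, 320.4 and 596 CPM in the Bam-GFP libraries and 184, 129.7 and 106 CPM in the GFP libraries. The remaining members of this group had ratios of means between 2.28 for *CG13084* and 15.1 for *CG12814*.

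**Figure D3:**
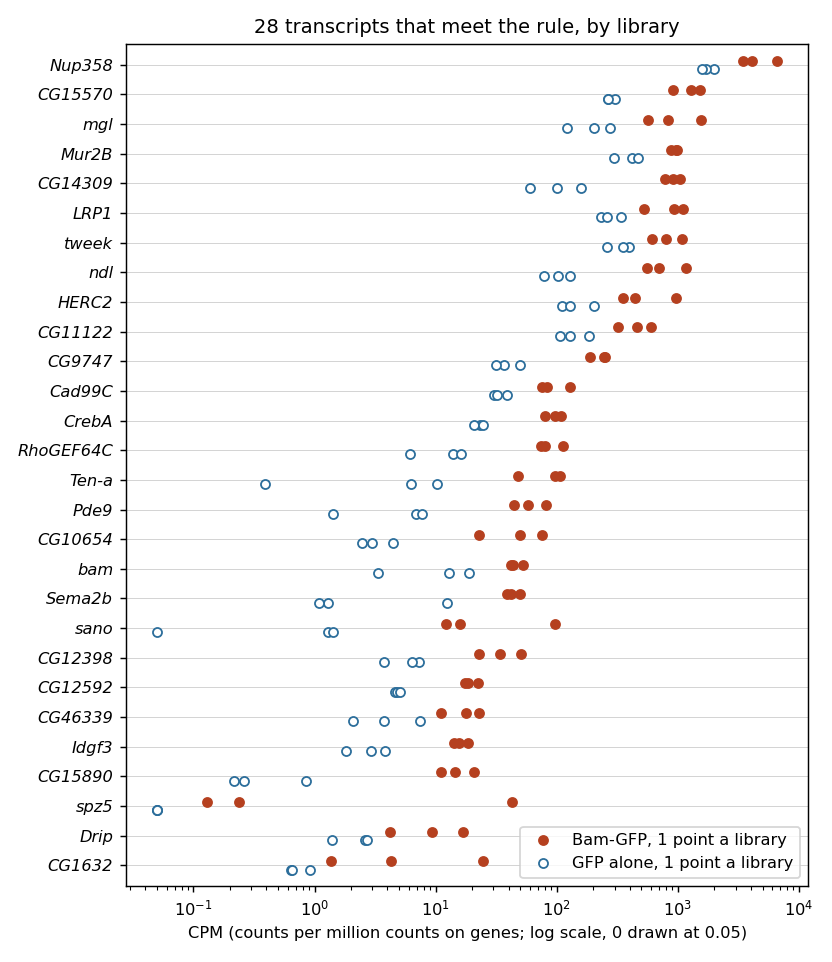
CPM in each library (x axis, log scale) for 28 of the 78 transcripts, ordered by mean with Bam-GFP, with Bam-GFP as filled points above GFP alone as open points in each row. In every row the filled points lie to the right of the open ones, as the rule requires, and *spz5*, *sano* and *CG1632* have a single Bam-GFP library far from the other 2.

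**Figure D4:**
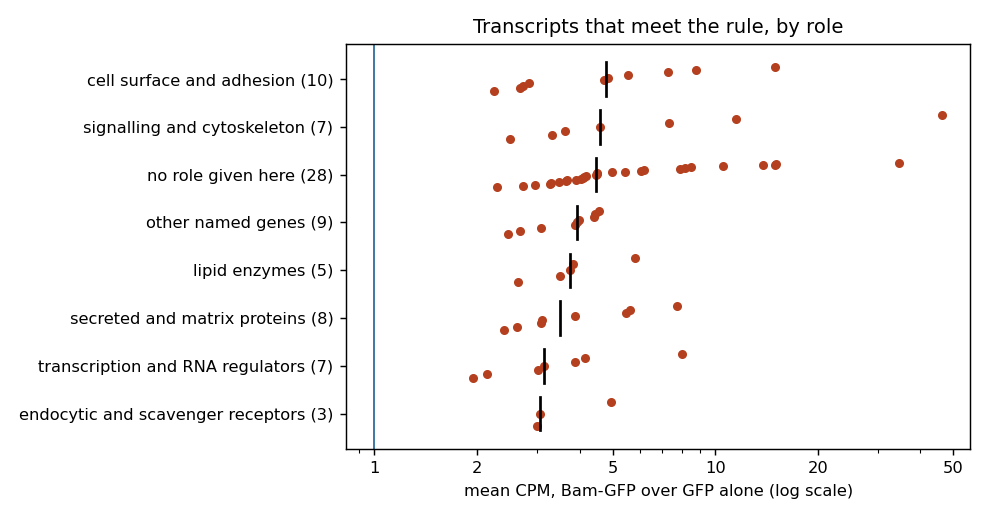
Mean CPM with Bam-GFP over mean CPM with GFP alone (x axis, log scale) for the 77 transcripts with a count in a GFP library, 1 point each, grouped by role, with the median of each role as a black line and equality as a blue line. The medians of the roles lie between 3.06 for endocytic and scavenger receptors and 4.78 for cell surface and adhesion genes.

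For 4 transcripts, a single Bam-GFP library lay far above the other 2. *spz5*, a ligand of the Spätzle family, had 42.8, 0.130 and 0.236 CPM with Bam-GFP and no count with GFP alone, so that 2 of its 3 Bam-GFP libraries were at or under 3 counts and no fold is given. *sano*, a planar polarity gene of 81110 bases, had 97.6, 15.9 and 12.1 CPM with Bam-GFP, against 1.28, 1.43 and 0 CPM with GFP alone, with 77.7% of its Bam-GFP sum in library 1. *CG1632* had 1.37, 4.27 and 24.6 CPM with Bam-GFP, against 0.642, 0.909 and 0.648 CPM with GFP alone, with 81.4% of its sum in library 3. *CG12814* had 64.7, 8.42 and 11.5 CPM in the Bam-GFP libraries and 3.21, 1.43 and 0.972 CPM in the GFP libraries. In *sano* and *CG12814* the other 2 Bam-GFP libraries also stood well above the GFP libraries, with lowest-to-highest ratios of 8.48 and 2.62. These 4 were the transcripts whose highest Bam-GFP library exceeded the lowest more than 5-fold. Over all 78, the highest exceeded the lowest more than 2-fold for 29 and more than 3-fold for 10, and the median of this spread was 1.73, against 1.85 over the 5611 genes with at least 10 CPM.

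The libraries did not contribute alike. Bam-GFP library 3 was the highest for 37 of the 78, library 1 for 30 and library 2 for 11. Over the 5611 genes with at least 10 CPM, these shares were 31.0% for library 3, 24.5% for library 1 and 44.5% for library 2. Library 2 was also the lowest for 38 of the 78. It thus ranked low for these transcripts while it ranked high over all genes. Because the rule asks for 3 libraries against 3, it keeps more genes with fewer libraries. Without Bam-GFP library 1, 2 or 3 it kept 124, 164 and 122 genes, and 75, 77 and 77 of the 78 were among them. Without GFP library 1, 2 or 3 it kept 135, 108 and 96 genes, which included all 78.

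All 78 transcripts are protein coding, against 98.9% of the 5565 annotated genes with at least 10 CPM with Bam-GFP. Their genes were long. The span from start to end of the gene, introns included, had a median of 12055 bases over the 78, against 3382 bases over those 5565 genes. Spans over 30000 bases were found for 20 of the 78 (25.6%), against 5.89% of those genes. The shortest was *CG13113* with 705 bases. Genes that met the rule with both groups exchanged had a median span of 2646 bases (n = 126), and the 18 eggshell genes of 961 bases. Over the 5565 genes with at least 10 CPM with Bam-GFP, the 78 included, the ratio also differed with span. The median log2 ratio of mean CPM (Bam-GFP over GFP alone) was −0.29 for genes under 2 kb and 0.15 for genes of 32 kb or more. The share that met the rule was 0.196% in the shortest class (3 of 1530) and 6.47% in the longest (20 of 309). Whether span, transcript length or another property of these genes carries this trend was not tested.

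**Figure D5:**
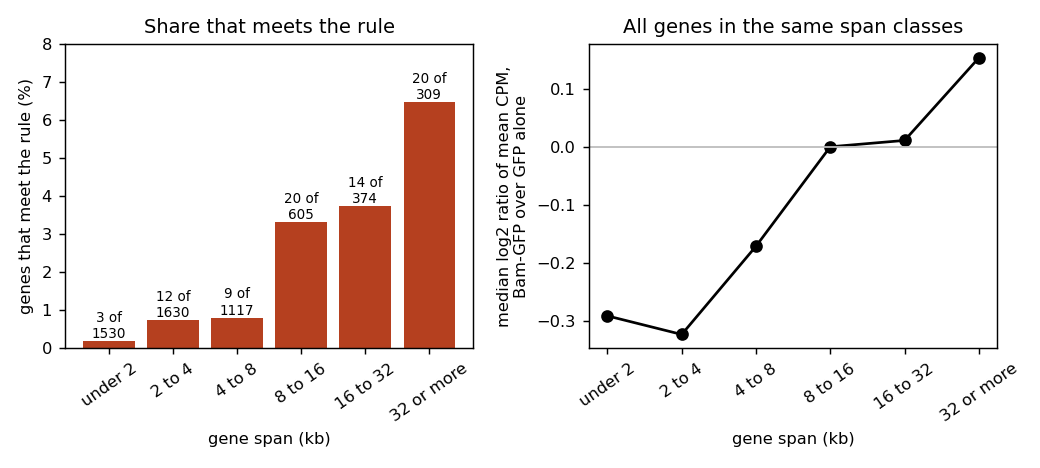
Left, share of genes that met the rule (y axis, %) by gene span (x axis, kb) among 5565 genes with at least 10 CPM with Bam-GFP, with the counts above the bars. Right, median log2 ratio of mean CPM, Bam-GFP over GFP alone, for the same genes in each class. It runs between −0.32 for 2 to 4 kb and 0.15 for 32 kb or more.

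The 78 genes were spread over the genome, with 17 on X, 12 on 2L, 13 on 2R, 12 on 3L, 23 on 3R and 1 on chromosome 4. X held 21.8% of them, against 18.6% of the 5565 genes. Besides *bam* and *Nup358*, *CG8303* and *CG5065*, the pairs within 10 kb of each other were *CG5888* and *Idgf3*, 2438 bases apart on 2L, and *mfas* and *Ect3*, 5963 bases apart on 3R. None of the 78 overlapped another of them, but 43 overlapped some other annotated gene (55.1%, against 49.7% of the 5565 genes). The strand setting of the counting is not given in the sources used here, and reads of overlapping genes may be assigned to either gene or to neither. *CG13992* was the single member within 20 kb of an eggshell gene, 440 bases from *psd*.

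The eggshell genes that the rule left out moved in the same direction. Of 18, 4 met the ratio and the minimum (*dec-1*, *Vml*, *psd* and *Fcp3C*), and all 18 had a positive log2 fold change with a median of 1.84, against −0.05 over all genes tested. With edgeR's quasi-likelihood test, 16 rose and 0 fell (adjusted p under 0.05), 18 were higher at an unadjusted p under 0.05, and DESeq2 called 17. Without replicate 1, 2 or 3, the number called was 13, 7 and 12. *dec-1*, an eggshell protein gene, had 3348, 3362 and 4853 CPM with Bam-GFP, against 594, 732 and 475 CPM with GFP alone. Summed, the 18 made up 13739 to 33586 CPM with Bam-GFP, against 4493 to 10481 CPM with GFP alone, and these sums did not overlap. Taken singly, the groups overlapped for *Cp15*, *Cp18*, *Cp19*, *Cp36*, *Cp38*, *Cp7Fc* and *Vm32E*. Their part in the excess of the 78 transcripts was not tested.

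Among other products of late follicle cells, 13 eggshell factors were listed. Of these, *ndl* was chosen by the rule on this contrast and is left out of the counts here. Of the other 12, 11 had a positive log2 fold change, against 5246 of all 10971 genes tested, and the median of the 12 was 1.04. With edgeR 2 rose and 0 fell after adjustment, 5 were higher and 0 lower at an unadjusted p under 0.05, and DESeq2 called 4 higher. Among the 11, *Pxd* and *wbl* averaged only 0.11 and 1.62 CPM with Bam-GFP. *Pxt* and *Mmp2* had log2 fold changes of 0.03 and 0.01, and their mean CPM was lower with Bam-GFP than with GFP alone. *Femcoat*, an eggshell gene, rose with a log2 fold change of 1.78 ± 0.38 (SE) (adjusted p = 0.00049, edgeR's quasi-likelihood test, 0.00011 to 0.0301 over the alternatives), with 111, 166 and 124 CPM with Bam-GFP, against 35.9, 79 and 31.8 CPM with GFP alone. *yellow-g2* had 34.4, 125 and 101 CPM in the Bam-GFP libraries and 31.7, 55.7 and 9.39 CPM in the GFP libraries (log2 fold change 1.74 ± 0.45 (SE), adjusted p = 0.00973 by edgeR), but its groups overlapped and its adjusted p ran from 0.00134 to 0.537 over the alternatives. It was not called without replicate 2 or 3, with library size only or with either stricter filter on low counts (filterByExpr, or at least 10 counts in every library). Without *ndl* the list summed to 1722 to 2983 CPM with Bam-GFP, against 1629 to 2225 CPM with GFP alone, and the sums overlapped.

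Of 10 general follicle cell markers, *Cad99C* was chosen by the rule and is left out of the counts. Over all 10971 genes tested, 1.72% were called higher by edgeR and the median log2 fold change was −0.05. Of the other 9 markers, 1 rose, the transcription factor *tj* (Traffic jam). *tj* had 121, 149.6 and 221 CPM with Bam-GFP, against 105, 76.1 and 72.5 CPM with GFP alone (log2 fold change 1.16 ± 0.35 (SE), adjusted p = 0.0438 by edgeR, 0.0182 to 0.404 over the alternatives). It was not called when any of the replicates was left out, with library size only or with either stricter filter. The 9 had a median log2 fold change of 0.75 and summed to 958 to 1192 CPM with Bam-GFP, against 636 to 796 CPM with GFP alone. Of 10 basement membrane genes, *wb*, *vkg* and *trol* rose, with log2 fold changes of 2.72 ± 0.83 (SE), 1.23 ± 0.32 (SE) and 1.57 ± 0.32 (SE), and the median was 0.95. The groups overlapped for *wb* and *trol*. None of these 3 was called without replicate 2, and of the 3 only *trol* without replicate 3 and with library size only. The call of *wb* was also lost with either stricter filter, and that of *vkg* with filterByExpr. The list summed to 1224 to 2372 CPM with Bam-GFP, against 624 to 1159 CPM with GFP alone. Of the 3 yolk protein genes, *Yp2* and *Yp3* rose by log2 fold changes of 1.11 ± 0.32 (SE) and 1.11 ± 0.33 (SE), neither of which was called without replicate 2 or 3, with library size only or with either stricter filter. *Yp2* was not called without replicate 1 either. Without the replicate block, the adjusted p of *Yp2* was 0.101 with edgeR and it was not called, and the groups of *Yp3* overlapped. How far these somatic transcripts account for the 78 was not tested.

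Lists of other cell types in or around the ovary gave few calls. None of 15 muscle sheath genes passed the adjusted threshold with edgeR or DESeq2 (0 higher and 1 lower, *Mhc*, at an unadjusted p under 0.05), with sums of 828 to 1759 CPM with Bam-GFP, against 1007 to 1483 CPM with GFP alone. None of 5 hemocyte genes with a count passed with either tool (0 at an unadjusted p under 0.05), with the markers *NimC1* and *He* at 0 in all libraries and sums of 270 to 364 CPM with Bam-GFP, against 480 to 542 CPM with GFP alone. Nearly all of this sum was *crq*, which averaged 317 ± 48.9 CPM with Bam-GFP, against 502 ± 32.9 CPM with GFP alone (SD, n = 3 each). Of 4 fat body genes with a count, *apolpp* fell, with 154, 142 and 207 CPM with Bam-GFP, against 704, 374 and 309 CPM with GFP alone (log2 fold change −1.17 ± 0.32 (SE), adjusted p = 0.0196 by edgeR, 0.00273 to 0.554 over the alternatives). That call was lost without replicate 1 or 2 and with either stricter filter, *Fbp2* and *to* were at 0, and the list, most of it *apolpp*, summed to 154 to 226 CPM with Bam-GFP, against 326 to 726 CPM with GFP alone. Escort and niche cell genes (9 with a count, *en* at 0) gave 0 calls with edgeR and DESeq2 and 0 at an unadjusted p under 0.05, with sums of 63.7 to 81.9 CPM with Bam-GFP, against 33.3 to 87.7 CPM with GFP alone. Of 10 testis genes, 6 were at 0 in all libraries and none of the other 4 was called by either tool or at an unadjusted p under 0.05.

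Lists of germline genes gave 1 call in each direction. Of 10 early germline genes, *bam* was chosen by the rule and is left out of the counts. Of the other 9, none rose (0 at an unadjusted p under 0.05 and 0 with DESeq2) and *zpg*, an innexin of germ cells, fell (log2 fold change −1.17 ± 0.35 (SE), adjusted p = 0.0387 by edgeR, 0.0122 to 0.533 over the alternatives). The call of *zpg* was lost whichever replicate was left out, with DESeq2, with either stricter filter and without the replicate block, where the adjusted p was 0.102 with edgeR. *zpg* had 40.7, 195 and 66.7 CPM in the Bam-GFP libraries and 196, 221 and 216 CPM in the GFP libraries. The median log2 fold change of the 9 was −0.25, and they summed to 1983 to 2570 CPM with Bam-GFP, against 2622 to 2738 CPM with GFP alone. Of 9 late germline genes, *osk*, whose mRNA is localised to the posterior of the oocyte, rose with 3178, 1864 and 3801 CPM with Bam-GFP, against 1692, 1024 and 1511 CPM with GFP alone (log2 fold change 1.26 ± 0.32 (SE), adjusted p = 0.00689 by edgeR, 0.000533 to 0.304 over the alternatives). This call was lost without replicate 2 or 3, and the median log2 fold change of the list was −0.0044. Its summed level was 4254 to 6028 CPM with Bam-GFP, against 3365 to 4662 CPM with GFP alone.

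Of 11 genes for known partners of Bam and mRNAs known to be controlled with it, none met the rule. With edgeR, 0 passed the adjusted threshold. At an unadjusted p under 0.05, *Not1* was higher and *Sxl* and *tut* were lower, and DESeq2 called *Not1* higher and *tut* lower after adjustment. *Not1*, the scaffold of the CCR4-NOT complex, had 4201, 2843 and 4881 CPM with Bam-GFP, against 3121, 1519 and 2709 CPM with GFP alone (log2 fold change 0.95 ± 0.32 (SE), adjusted p = 0.0875 by edgeR, 0.0114 to 0.820 over the alternatives), and the groups overlapped. *Sxl* had 101, 194 and 83 CPM with Bam-GFP, against 262, 264 and 316 CPM with GFP alone, and the groups did not overlap. Its log2 fold change was −1.02 ± 0.32 (SE) (adjusted p = 0.0637 by edgeR, 0.0160 to 0.673 over the alternatives). *tut* had at most 0.648 CPM with Bam-GFP, against 9.31, 5.59 and 3.13 CPM with GFP alone. *mei-P26* had 942, 694 and 771 CPM in the Bam-GFP libraries and 702, 478 and 743 CPM in the GFP libraries (log2 fold change 0.56 ± 0.31 (SE), adjusted p = 0.623 by edgeR, 0.319 to 0.950 over the alternatives), and the groups overlapped. *nos*, the translational repressor of the stem cell, had 238, 321 and 151 CPM with Bam-GFP, against 308, 455 and 294 CPM with GFP alone, and *shg* (E-cadherin) had 370.1, 377 and 564 CPM with Bam-GFP, against 337, 266 and 431 CPM with GFP alone. Their log2 fold changes were −0.39 ± 0.32 (SE) and 0.56 ± 0.31 (SE). *bgcn* had at most 3 counts in every library, too few to show a difference at this depth. The median log2 fold change of the 11 was −0.07.

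In sorted germ cells, 53 of the 78 transcripts are listed among the 6555 genes of the authors' table (67.9%), against 66.3% of the 5611 genes with at least 10 CPM with Bam-GFP. This table holds genes that the authors selected by their own comparison, and a gene outside it is not shown to be absent from germ cells. The authors' mean normalized count over all libraries had a median of 1475 for the 53, against 3206 for the 3719 listed genes with at least 10 CPM with Bam-GFP. It ranged from 55.1 for *CG15890* to 26387 for *btsz*, and exceeded 5000 for 14. *ndl* had an authors' mean of 14821, *HERC2* of 10200 and *Cad99C* of 6185. *CG14309* and *CG15570*, with means of 908 and 1241 CPM with Bam-GFP, had authors' means of 198 and 65.2. *bam* and *Nup358* are not listed.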

How the data were processed

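RIP-seq libraries (3 of Bam-GFP and 3 of GFP alone) and a table of sorted germ cells were used. The authors aligned reads with STAR 2.4.0 to the FlyBase *Drosophila* genome and counted them per gene with HTSeq 0.11.0, and the deposited RIP-seq values are raw counts. For the sorted cells, only the mean normalized signal over all libraries in the authors' deposited table was used. The authors' deposited columns of their own comparisons (a fold-change score and p-value for RIP-seq, and a log2 fold change with its standard error, a Wald score and p-values for RNA-seq) were not used.

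Columns of the table were matched to groups, and replicate numbers taken from column names. Samples were grouped by strain and title in the labels, which do not say that the libraries came from separate cultures or animals beyond their numbers. CPM were counts divided by the column sum over genes, and 5 lines that name no gene were left out. Library totals set the precision of low values, and intervals were not computed. The 10971 genes with at least 1 count were fitted with edgeR 4.0.16 (TMM, robust quasi-likelihood test, Benjamini-Hochberg adjustment) in R 4.3.3 with the replicate number as a block, as the study used a paired test. Deviations of same-numbered libraries correlated by −0.12, 0.20 and −0.04 over 6421 genes, which does not show that equal numbers mark paired libraries. The fit without the block is given wherever a call of a named list gene was lost in it. The script was tested on simulated data. Tables used pandas 2.3.3 and figures matplotlib 3.10.9.

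The transcripts and gene lists were chosen with earlier results of these data known. Named are *bam*, the 15 members with the largest lowest-to-highest ratio, the 10 with the highest mean CPM with Bam-GFP, the 5 on each side of the ratio threshold, members on a marker list, genes within 40 kb of *bam* and list genes that passed the test. Other members, *Rac1* and list genes that did not pass the test were named after their values were seen, to account for all members by role. Alternatives were other scalings, thresholds, filters and totals, DESeq2 1.42.0, no replicate block, and libraries left out. Coordinates, spans and symbols came from RefSeq, Release 6 plus ISO1 MT, where 17599 of 17737 identifiers matched. *Cp110* and *Cp190* (centrosome genes) were not counted as eggshell genes.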

Additional observations from a re-analysis of the deposited data

How the results depend on the processing

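The number of genes that met the rule depended on the scaling and the margin. It was 118 with TMM factors, 123 with RLE size factors, 127 with a looser ratio and 42 with a ratio of at least 2, against 78. Leaving out a replicate in both groups gave 154 to 248 genes, leaving out a single Bam-GFP library 122 to 164 and leaving out a single GFP library 96 to 135. Library totals with the alignments to several places added gave 114 genes, of which 68 were among the 78. A limit of 3-fold between Bam-GFP libraries, chosen after seeing the data, kept 68. Genes called higher by edgeR numbered 108 with library size only, 304 with DESeq2, 102 with filterByExpr, 100 with at least 10 counts in every library and 55 to 121 without a replicate, against 189. Genes called lower numbered 87 with library size only, 104 with DESeq2, 16 with filterByExpr, 13 with at least 10 counts in every library and 18 to 44 without a replicate, against 52. The cause of these shifts was not tested, except that fewer libraries or genes entered by construction. Library size only moved the median log2 fold change of all genes to −0.26 from −0.05 and that of the 78 to 2.07 from 2.29. The rule used this scale, so that a positive sign for all 78 was fixed by it.

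Without the replicate block, 227 genes were higher (167 shared) and 73 lower (38 shared), and same-numbered libraries did not deviate together in every pair. Of the list genes named as called, *Yp2* and *zpg* were lost without the block, as were the eggshell genes *Cp15* and *Cp36*. Calls were also gained, since 15 eggshell genes were called higher without the block, against 16 with it. Of the 12 late follicle cell eggshell factors other than *ndl*, 3 were called higher without the block, against 2. Of 218 alternative log2 fold changes of named members, 216 moved by less than the square root of the summed variances of log2 CPM in both groups. The exceptions were *spz5* without replicate 1 and *CG12592* at 2.01 with library size only. For *spz5*, that fit rested on 1 and 3 counts with Bam-GFP and none with GFP alone, so that its value is not given. That bound is wide for uneven genes, and the members were chosen on this contrast, so that this count is no test of them. Of 234 alternative counts of list genes, 39 moved by more than 1.5 times, most of them counts of 5 or fewer. With 3 counts equal to up to 0.390 CPM, levels under that were not resolved.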
